A study of Arabidopsis thaliana with 12 samples.

Results

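The question addressed here was whether the effect of camta3-D on leaf transcripts differed between flg22 and Pseudomonas syringae pv. tomato DC3000 (Pst). All 12 libraries of the series entered, 4 from flg22-treated and 8 from Pst-treated leaves, with 2 in each of 6 groups. For every gene the genotype effect, camta3-D over wild type on the log2 scale, was taken after flg22 and after Pst, the mean of the strains carrying AvrRpm1 and AvrRps4. The quantity reported is the effect after flg22 minus that after Pst, so a positive value means that camta3-D stood higher, relative to wild type, after flg22 than after Pst.

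The groups were camta3-D leaves 1 h after 100 nM flg22, wild-type leaves 1 h after 100 nM flg22, and camta3-D and wild-type leaves 4 h after Pst AvrRpm1 or Pst AvrRps4, infiltrated at OD600 0.001. All plants were Arabidopsis thaliana of the Col-0 background, aged 4 weeks, and each sample pooled 6 leaf discs from 6 plants. The line camta3-D carries sr1-4d, a dominant allele of CAMTA3, and was represented by this allele alone. Elicitor and sampling time changed together, so an influence of the elicitor and one of the time cannot be told apart. No mock-treated library was analysed here, so a genotype difference that was present before treatment cannot be told from a response. The study states that the flg22 and AvrRpm1 libraries came from repeats in independent experiments, and does not state this for AvrRps4. The p-values cover only the spread seen among the deposited samples, some of which, as for AvrRps4, may be technical.

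CAMTA proteins are transcription factors that bind calmodulin and recognize DNA with a CGCG core. CAMTA3 is best known as a repressor of salicylic acid defence genes in unchallenged leaves, and it also takes part in the rapid response to cold and wounding. The peptide flg22, a piece of bacterial flagellin, is sensed at the cell surface by the receptor FLS2 and sets off calcium influx and kinase cascades within minutes. AvrRpm1 is sensed inside the cell through RPM1 and AvrRps4 through RPS4 with RRS1, while bacteria also present flagellin and other patterns to the surface receptors.

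The libraries held 22769687 to 26303024 gene counts, and 20749 to 21147 genes had at least 1 count. The composition factors used for scaling (TMM) lay between 0.797 and 0.825 in the 4 flg22 libraries and between 1.04 and 1.17 in the 8 Pst libraries. In AvrRpm1 camta3-D replicate 2 the counting set 7.78% of alignments aside as non-unique, while the other 11 libraries reached 3.43% at most. Summed guard cell markers reached 3116 and 3205 CPM (TMM-scaled CPM, gene counts relative to the library total) in camta3-D against 4405 and 5314 CPM in wild type after flg22, and 2184 to 3150 CPM over the Pst libraries. In RNA from whole discs, fewer cells of a type and less RNA per cell cannot be told apart.

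Of 19167 genes tested, 59 had a genotype effect that differed between flg22 and Pst at an adjusted p under 0.05 (edgeR quasi-likelihood, Benjamini-Hochberg over all genes). They made up 0.308% of genes, with 32 higher after flg22 (0.167%) and 27 lower (0.141%). The smallest adjusted p was 0.0132 and the median absolute difference of the called genes was 1.34 on the log2 scale. Differences beyond 2-fold were seen for 23 of the higher and 22 of the lower genes. At an unadjusted p under 0.05, 1858 genes were higher (9.69%) and 1245 lower (6.5%). For each gene the 4 genotype differences between single flg22 libraries were also set against the 8 between single Pst libraries of the same strain. They did not overlap in any of the 59 called genes, while over all genes 1511 lay wholly above (7.88%) and 1080 wholly below (5.63%). The calls were made from the same libraries, so the lack of overlap in the called genes is not separate support.

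Every genotype effect was also tested within the treatments, which share the libraries of the difference. After flg22, 999 genes were higher in camta3-D (5.21%) and 1072 lower (5.59%). After Pst, 792 were higher in camta3-D (4.13%) and 1113 lower (5.81%). Set by these calls, 28 of the 59 genes had a called genotype effect after flg22 and not after Pst, 15 after Pst and not after flg22, 11 after both in opposite directions and 5 after both in the same direction. Between flg22 and Pst, in camta3-D 6229 genes were higher (32.5%) and 6498 lower (33.9%), and in wild type 6570 were higher (34.3%) and 7063 lower (36.8%).

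The counts within treatments rested on single libraries as well. Leaving out flg22 camta3-D replicate 1 or 2, the effect after flg22 had 350 and 114 higher genes and 316 and 190 lower. Leaving out flg22 wild type replicate 1 or 2, it had 322 and 53 higher and 639 and 165 lower. The effect after Pst had 408 higher genes without AvrRpm1 camta3-D replicate 1, 244 and 499 without AvrRpm1 wild type replicate 1 and 2, 312 and 477 without AvrRps4 camta3-D replicate 1 and 2, and 327 without AvrRps4 wild type replicate 1. In the same order, it had 644, 508, 1002, 482, 724 and 717 lower genes.

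**Figure D1:**
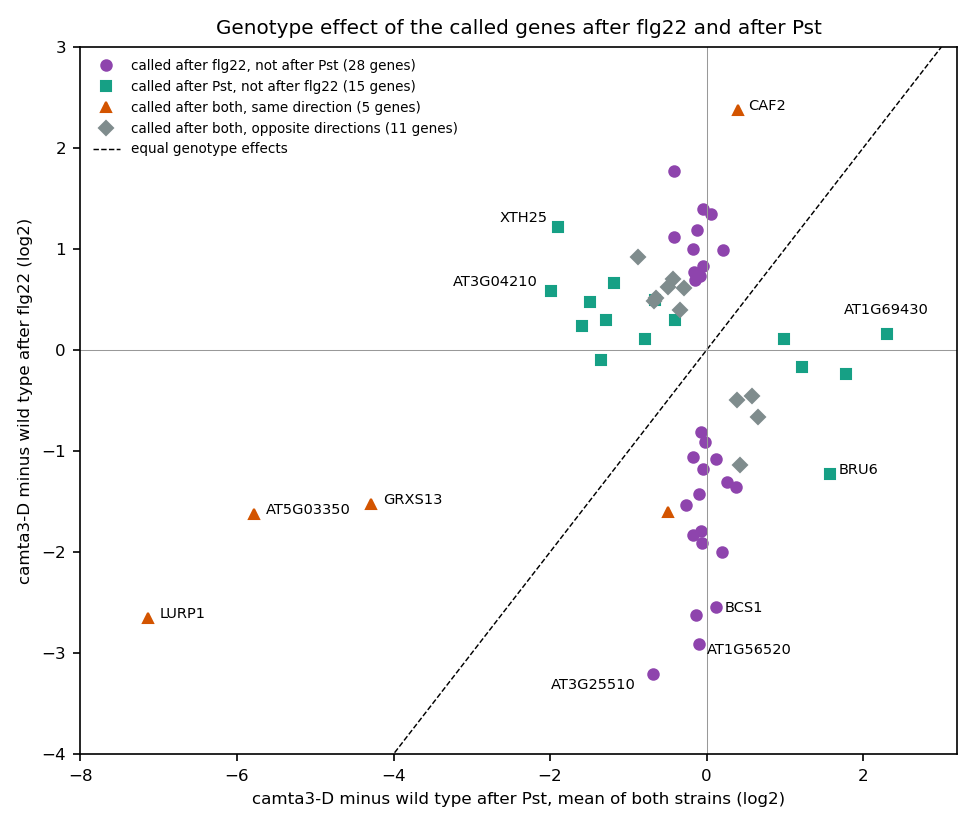
Genotype effect (camta3-D minus wild type, log2) after flg22 on the vertical axis against that after Pst, the mean of both strains, on the horizontal axis, for the 59 called genes. The dashed line marks equal effects. LURP1, AT5G03350 and GRXS13 lie far to the left, and 28 genes lie near the vertical line at 0.

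LURP1, AT5G03350 and GRXS13 were lower in camta3-D after both treatments and more so after Pst, and the first 2 had the largest differences of the called genes. LURP1 (AT2G14560) is needed for full basal defence against a downy mildew and is induced late in that infection. It had 0.904 and 1.97 CPM in camta3-D against 6.31 and 11.9 CPM in wild type after flg22. After AvrRpm1 the gene had 0.887 and 1.502 CPM in camta3-D against 539.8 and 376 CPM in wild type, and after AvrRps4 1.26 and 1.01 CPM in camta3-D against 43.3 and 74.1 CPM in wild type. The 6 camta3-D libraries stayed below 2 CPM whatever the treatment, and the wild-type libraries were high after Pst. The genotype effect was -2.66 after flg22 and -7.14 after Pst, a difference of 4.48 ± 0.63 (log2, SE, edgeR adjusted p = 0.0371).

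AT5G03350, a legume lectin family gene, followed the same course. It had 1.28 and 2.12 CPM in camta3-D against 3.502 and 7.01 CPM in wild type after flg22, 2.27 and 2.45 CPM in camta3-D against 314 and 434 CPM in wild type after AvrRpm1, and 4.43 and 2.59 CPM in camta3-D against 60.5 and 73.6 CPM in wild type after AvrRps4. Again the groups did not overlap within any treatment, and the wild-type level after Pst set the size of the effect. The difference was 4.16 ± 0.51 (edgeR adjusted p = 0.0267), from -1.62 after flg22 and -5.78 after Pst. GRXS13, a glutaredoxin gene placed here with the salicylic acid genes, had 2.92 and 2.95 CPM in camta3-D against 7.05 and 9.91 CPM in wild type after flg22. After AvrRpm1 it had 0.426 and 0.316 CPM in camta3-D against 13.5 and 7.15 CPM in wild type, and after AvrRps4 0.267 and 0.243 CPM in camta3-D against 3.25 and 4.02 CPM in wild type. All 4 camta3-D Pst libraries lay below 0.5 CPM for GRXS13, and the difference was 2.76 ± 0.44 (edgeR adjusted p = 0.0408).

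The 250 bases upstream of the annotated gene start (RefSeq, TAIR10.1) are shown for LURP1 and AT5G03350 because these had the largest differences and moved alike. The sequences were chosen after the values were seen. They run 5′ to 3′ on the gene's strand, and capitals mark CGCG, the core of the CAMTA site, and CGTG or its reverse complement CACG, the core of a weaker site that it can overlap.
LURP1: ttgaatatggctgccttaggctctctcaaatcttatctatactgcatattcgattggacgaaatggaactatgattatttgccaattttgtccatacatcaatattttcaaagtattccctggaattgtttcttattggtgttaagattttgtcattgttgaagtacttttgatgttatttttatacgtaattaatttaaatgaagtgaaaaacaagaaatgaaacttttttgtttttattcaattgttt
AT5G03350: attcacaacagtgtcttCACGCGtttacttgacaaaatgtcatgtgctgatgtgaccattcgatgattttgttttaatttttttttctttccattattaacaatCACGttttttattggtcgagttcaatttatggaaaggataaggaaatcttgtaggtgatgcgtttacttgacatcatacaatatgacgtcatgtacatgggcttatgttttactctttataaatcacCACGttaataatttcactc
LURP1 lies at chr2:6213367-6213616 on the plus strand and AT5G03350 at chr5:816671-816920 on the minus strand. The LURP1 window holds neither word, and that of AT5G03350 holds 1 CGCG and 3 CGTG or CACG. Searched on both strands, CGCG was present upstream of 12.5% of the 32 higher genes and 11.1% of the 27 lower genes, against 11.1% of 19043 promoters of tested genes. CGTG or CACG, some of it inside CACGTG, was present in 59.4% of the higher and 51.9% of the lower genes, against 46.3% of all. TTGAC or GTCAA, the core of the WRKY site, was present in 37.5% of the higher and 59.3% of the lower genes, against 44.9%. These shares are a description of letters in a window.

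CAF2 and MYB4 completed the genes called after both treatments in 1 direction, and in both the larger effect came after flg22. CAF2 encodes a factor that splices introns of chloroplast transcripts. It had 86.0 and 81.5 CPM in camta3-D against 17.7 and 14.4 CPM in wild type after flg22. After AvrRpm1 the gene had 99.4 and 109 CPM in camta3-D against 84.5 and 85.9 CPM in wild type, and after AvrRps4 153 and 111 CPM in camta3-D against 89.1 and 95.2 CPM in wild type. Only the wild-type flg22 libraries were low. The difference was 1.97 ± 0.19 (edgeR adjusted p = 0.0132), from 2.38 after flg22 and 0.41 after Pst. MYB4, a repressor of phenylpropanoid genes, had 18.8 and 17.1 CPM in camta3-D against 53.3 and 56.0 CPM in wild type after flg22. Its Pst effect of -0.49 came from AvrRps4 (-1.02), with 0.04 after AvrRpm1, and the difference was -1.12 ± 0.19 (edgeR adjusted p = 0.0493).

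**Figure D2:**
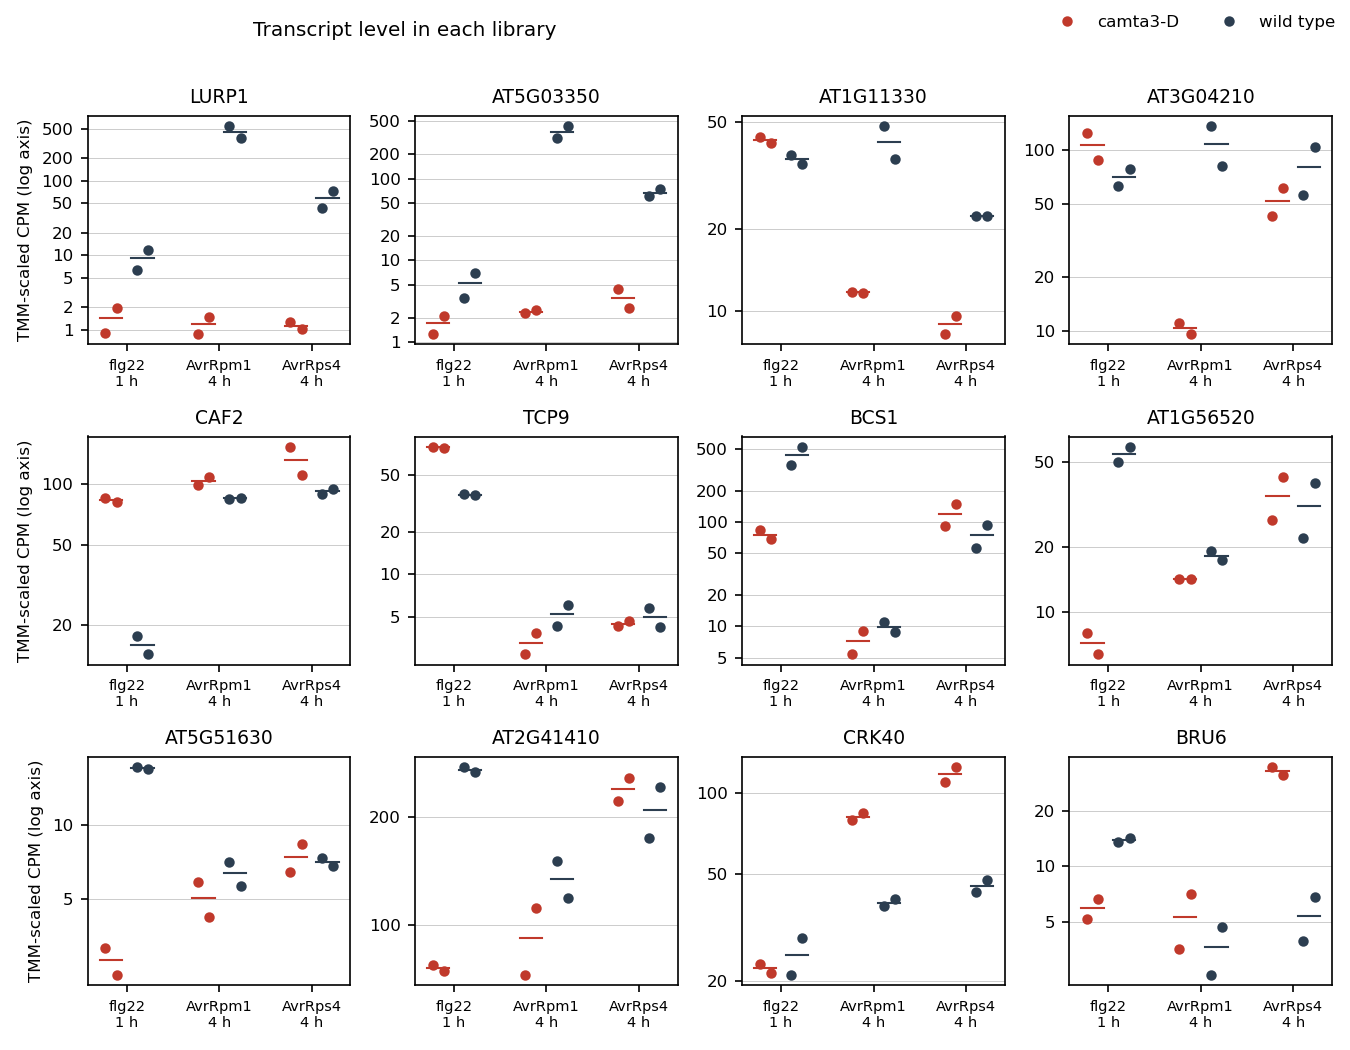
TMM-scaled CPM of 12 called genes in each library (points) with the group mean (line), on log axes, camta3-D left of wild type within each treatment. Wild type is high after Pst for LURP1 and AT5G03350, low after flg22 for CAF2, and high after flg22 for AT5G51630.

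In 10 genes the positive difference came with a called effect after Pst, where camta3-D was lower, and none after flg22. Among them were 3 receptor-like kinases, proteins that span the plasma membrane and pass on signals from outside. AT1G11330, an S-locus lectin kinase gene, had 43.9 and 41.5 CPM in camta3-D against 37.6 and 35.0 CPM in wild type after flg22. After AvrRpm1 it had 11.8 and 11.6 CPM in camta3-D against 48.0 and 36.2 CPM in wild type, and after AvrRps4 8.21 and 9.55 CPM in camta3-D against 22.5 and 22.3 CPM in wild type. The 4 camta3-D Pst libraries stood alone at the bottom. Its difference of 1.83 ± 0.17 had the smallest p of all genes (edgeR adjusted p = 0.0132), with 0.23 after flg22 and -1.59 after Pst.

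PERK15, a kinase gene of the proline-rich extensin-like type, had 9.62 and 11.6 CPM in camta3-D against 7.33 and 7.98 CPM in wild type after flg22. It had 3.44 and 3.52 CPM in camta3-D against 22.3 and 14.7 CPM in wild type after AvrRpm1, and 7.68 and 7.36 CPM in camta3-D against 11.2 and 11.2 CPM in wild type after AvrRps4. The gap between genotypes after AvrRpm1 was the wider of the Pst gaps, and the difference was 1.97 ± 0.24 (edgeR adjusted p = 0.0267). CRK5, a cysteine-rich receptor-like kinase gene, had 26.4 and 25.5 CPM in camta3-D against 28.7 and 26.6 CPM in wild type after flg22, where its effect was -0.09. Its effects were -1.31 after AvrRpm1 and -1.38 after AvrRps4, and the difference was 1.25 ± 0.18 (edgeR adjusted p = 0.0371).

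AT3G04210 encodes a protein of the TIR-NBS class, related to intracellular immune receptors. It had 124 and 87.9 CPM in camta3-D against 63.0 and 78.6 CPM in wild type after flg22. After AvrRpm1 the gene had 11.1 and 9.72 CPM in camta3-D against 135 and 81.6 CPM in wild type, while after AvrRps4 it had 43.2 and 61.3 CPM in camta3-D against 56.1 and 104 CPM in wild type. The genotypes were far apart after AvrRpm1 and overlapped after AvrRps4, with effects of -3.37 and -0.62. The difference over both strains was 2.57 ± 0.41 (edgeR adjusted p = 0.0408). XTH25, an enzyme gene that remodels cell wall xyloglucan, had 6.17 and 6.32 CPM in camta3-D against 3.18 and 2.18 CPM in wild type after flg22, and 2.98 and 1.54 CPM in camta3-D against 17.9 and 10.1 CPM in wild type after AvrRpm1. After AvrRps4 it had 4.47 and 4.85 CPM in camta3-D against 12.7 and 8.36 CPM in wild type. Its genotype order was thus the opposite after flg22 (1.22, edgeR adjusted p = 0.0664) and after Pst (-1.90, edgeR adjusted p = 0.00231), and the difference was 3.11 ± 0.45 (edgeR adjusted p = 0.0371).

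LOX6, a lipoxygenase gene of the jasmonate pathway, had 44.4 and 45.2 CPM in camta3-D against 38.1 and 45.2 CPM in wild type after flg22. After AvrRpm1 it had 11.4 and 11.2 CPM in camta3-D against 29.1 and 25.8 CPM in wild type, and after AvrRps4 16.7 and 18.4 CPM in camta3-D against 23.1 and 19.9 CPM in wild type. The gap was mainly that of AvrRpm1, and the difference was 0.89 ± 0.15 (edgeR adjusted p = 0.0461). Its upstream window is shown, with the same capitals, as the printed one that holds most CGCG (2, beside 4 CGTG or CACG, at chr1:25319554-25319803, plus strand).
LOX6: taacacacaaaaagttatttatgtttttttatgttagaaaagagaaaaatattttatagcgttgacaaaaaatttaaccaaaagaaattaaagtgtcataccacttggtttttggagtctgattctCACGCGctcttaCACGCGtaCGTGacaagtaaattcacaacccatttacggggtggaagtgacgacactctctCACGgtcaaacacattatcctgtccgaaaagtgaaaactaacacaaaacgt
The other 4 genes of this kind were AT4G24970 (GHKL-type ATPase, 1.85), AT3G03440 (ARM repeat protein, 1.58), AT5G45030 (trypsin family, 1.15) and AT5G01960 (RING/U-box protein, 0.70). AT3G03440 had 7.12 and 7.72 CPM in camta3-D against 6.45 and 5.61 CPM in wild type after flg22, and 2.71 to 3.798 CPM in camta3-D against 6.10 to 9.02 CPM in wild type over the Pst libraries. AT4G24970 had 19.2 and 17.3 CPM in camta3-D against 13.5 and 9.53 CPM in wild type after flg22, and 3.02 to 4.23 CPM in camta3-D against 5.95 to 10.7 CPM in wild type over the Pst libraries.

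In 5 genes the negative difference came with a called effect after Pst, where camta3-D was higher, and none after flg22. CRK40, another cysteine-rich receptor-like kinase gene, had 23.1 and 21.4 CPM in camta3-D against 21.1 and 28.8 CPM in wild type after flg22. It had 79.1 and 84.2 CPM in camta3-D against 38.0 and 40.1 CPM in wild type after AvrRpm1, and 110.4 and 125 CPM in camta3-D against 42.7 and 47.4 CPM in wild type after AvrRps4. The genotypes overlapped after flg22 and were well apart after both strains, the opposite of CRK5 in direction. The difference was -1.39 ± 0.18 (edgeR adjusted p = 0.0271).

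BRU6 (AT4G37390) belongs to the GH3 enzymes that join auxin to amino acids. It had 5.21 and 6.63 CPM in camta3-D against 13.5 and 14.2 CPM in wild type after flg22. It had 3.55 and 7.11 CPM in camta3-D against 2.58 and 4.70 CPM in wild type after AvrRpm1, and 34.6 and 31.4 CPM in camta3-D against 3.93 and 6.79 CPM in wild type after AvrRps4. The 2 camta3-D AvrRps4 libraries were above all others. The difference was -2.81 ± 0.44 (edgeR adjusted p = 0.0408), or -3.85 against AvrRps4 and -1.77 against AvrRpm1. The effect of BRU6 after flg22 lay just outside the threshold (-1.23, edgeR adjusted p = 0.0569). Its effect was 2.62 after AvrRps4 (edgeR adjusted p = 0.00726) and 0.54 after AvrRpm1, which was not called (edgeR adjusted p = 0.473). AT1G69430, annotated as a Son of sevenless protein, had 3.40 and 3.52 CPM in camta3-D against 2.903 and 3.29 CPM in wild type after flg22, and 1.19 to 2.35 CPM in camta3-D against 0.248 to 0.464 CPM in wild type over the Pst libraries. The remaining genes were AT5G16200 (annotated as a ribosomal protein-like protein, -2.01) and AT3G02070 (cysteine proteinase family, -0.88).

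The most common pattern was a called effect after flg22 without a called effect after Pst, and 17 of these 28 genes had a negative difference. Among them were 3 genes of the TIR-NBS-LRR class, the class of intracellular receptors to which RPS4 belongs. AT5G51630 had 3.14 and 2.43 CPM in camta3-D against 17.3 and 17.1 CPM in wild type after flg22. It had 5.86 and 4.19 CPM in camta3-D against 7.06 and 5.62 CPM in wild type after AvrRpm1, and 6.42 and 8.41 CPM in camta3-D against 7.36 and 6.79 CPM in wild type after AvrRps4. Camta3-D was at its lowest and wild type at its highest after flg22, and the genotypes overlapped after each strain. The difference was -2.49 ± 0.27 (edgeR adjusted p = 0.0226).

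AT1G56520 had 8.03 and 6.37 CPM in camta3-D against 49.7 and 58.7 CPM in wild type after flg22. After AvrRpm1 the gene had 14.3 and 14.2 CPM in camta3-D against 19.2 and 17.44 CPM in wild type, and after AvrRps4 26.9 and 42.4 CPM in camta3-D against 22.2 and 39.9 CPM in wild type. Its difference was -2.81 ± 0.35 (edgeR adjusted p = 0.0267). AT3G25510, the least abundant of the TIR genes, had 0.319 and 0.621 CPM in camta3-D against 4.84 and 3.97 CPM in wild type after flg22. It had 0.674 and 0.830 CPM in camta3-D against 1.94 and 2.23 CPM in wild type after AvrRpm1, and 3.32 and 4.81 CPM in camta3-D against 3.86 and 3.76 CPM in wild type after AvrRps4. Its effect after AvrRpm1 alone was also called (-1.47, edgeR adjusted p = 0.0266), while the mean over both strains was not. The difference was -2.52 ± 0.39 (edgeR adjusted p = 0.0408), and against AvrRpm1 alone it was not called (-1.74, edgeR adjusted p = 0.121). Reads shared by near-identical members of this family cannot be assigned anew from the counts.

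BCS1 (AT3G50930), annotated as a cytochrome bc1 synthesis protein, had 83.5 and 68.1 CPM in camta3-D against 355 and 526 CPM in wild type after flg22. It had 5.40 and 9.05 CPM in camta3-D against 10.9 and 8.81 CPM in wild type after AvrRpm1, and 90.6 and 149 CPM in camta3-D against 55.8 and 93.1 CPM in wild type after AvrRps4. The level thus moved widely with the treatment in both genotypes, and the genotypes separated after flg22. The difference was -2.65 ± 0.42 (edgeR adjusted p = 0.0408), from -2.54 after flg22 and 0.12 after Pst. Its upstream window (chr3:18929276-18929525, plus strand) is shown for contrast with that of LOX6, since it holds neither CGCG nor CGTG or CACG and has no capitals.
BCS1: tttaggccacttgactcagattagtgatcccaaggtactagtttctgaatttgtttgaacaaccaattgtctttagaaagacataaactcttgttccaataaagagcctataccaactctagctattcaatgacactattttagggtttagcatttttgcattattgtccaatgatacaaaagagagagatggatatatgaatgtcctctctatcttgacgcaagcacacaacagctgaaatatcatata

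Genes of ion and calcium handling were among those called after flg22. AT2G41410, an EF-hand calcium-binding protein gene, had 77.2 and 74.3 CPM in camta3-D against 274 and 266 CPM in wild type after flg22, and 72.6 to 257 CPM in camta3-D against 119 to 242 CPM in wild type over the Pst libraries. Its difference was -1.66 ± 0.27 (edgeR adjusted p = 0.0432). KT1 (AT2G26650), the inward potassium channel also known as AKT1, had 10.2 and 10.9 CPM in camta3-D against 28.8 and 23.4 CPM in wild type after flg22, and 6.95 to 10.7 CPM in camta3-D against 5.25 to 8.56 CPM in wild type over the Pst libraries. Wild type after flg22 stood above all other groups for KT1. Its difference was -1.57 ± 0.24 (edgeR adjusted p = 0.0408).

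LecRK-I.9 (AT5G60300), the plasma membrane receptor for extracellular ATP, had 9.09 and 9.58 CPM in camta3-D against 20.6 and 19.0 CPM in wild type after flg22. In the Pst libraries it had 6.27 to 8.09 CPM in camta3-D against 5.87 to 6.68 CPM in wild type, and the difference was -1.21 ± 0.15 (edgeR adjusted p = 0.0267). AT1G12460, a leucine-rich repeat kinase gene, had 8.88 and 9.32 CPM in camta3-D against 18.4 and 28.2 CPM in wild type after flg22, with a difference of -1.73 ± 0.27 (edgeR adjusted p = 0.0408). For both kinases wild type after flg22 stood well above every other library. The Pst libraries of both genotypes lay close together for LecRK-I.9. For AT1G12460 they had 7.26 to 11.4 CPM in camta3-D against 5.80 to 7.28 CPM in wild type. AT5G57150, a bHLH transcription factor gene, had 13.4 and 12.3 CPM in camta3-D against 37.3 and 52.1 CPM in wild type after flg22, and 6.96 to 10.5 CPM in camta3-D against 7.39 to 10.2 CPM in wild type over the Pst libraries. Its difference was -1.72 ± 0.22 (edgeR adjusted p = 0.0267). EXO70H4, an exocyst subunit gene known from trichome wall formation, had 11.5 and 10.3 CPM in camta3-D against 36.1 and 46.0 CPM in wild type after flg22, and at most 2.04 CPM in any Pst library.

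The other genes of this kind were AT4G10390 (protein kinase, -2.20), PIRL5 (leucine-rich repeat protein, -1.34), AT3G56740 (ubiquitin-associated protein, -1.27), AT1G77810 (galactosyltransferase family, -1.13), AT3G05050 (protein kinase, -0.89), AT1G57620 (p24 family, -0.89) and UBP23 (ubiquitin protease, -0.74). UBP23 shows how small a difference was called where replicates were close. It had 148 and 144 CPM in camta3-D against 252 and 258 CPM in wild type after flg22, and 56.6 to 71.8 CPM in camta3-D against 61.1 to 73.4 CPM in wild type over the Pst libraries.

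In the other 11 genes with a called effect after flg22 and not after Pst, camta3-D stood above wild type after flg22. TCP9, a transcription factor gene of the TCP family, had 79.6 and 78.7 CPM in camta3-D against 37.0 and 36.2 CPM in wild type after flg22. It had 2.73 to 4.65 CPM in camta3-D against 4.27 to 6.12 CPM in wild type over the Pst libraries. Its level was thus far higher after flg22 in both genotypes, and the difference of the genotype effect was 1.53 ± 0.23 (edgeR adjusted p = 0.0408). AT3G06150, annotated as a cytochrome P450 family protein, had 47.9 and 64.1 CPM in camta3-D against 23.7 and 18.9 CPM in wild type after flg22, and 17.2 to 23.61 CPM in camta3-D against 18.6 to 21.8 CPM in wild type over the Pst libraries. Here the camta3-D flg22 libraries stood out, and the other 10 lay close together.

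Several of these 11 genes were low after flg22 and less so in camta3-D. GTL1, a trihelix factor that limits cell growth in trichomes, had 11.7 and 10.6 CPM in camta3-D against 6.59 and 7.20 CPM in wild type after flg22, and 46.3 to 75.7 CPM in camta3-D against 58.3 to 74.5 CPM in wild type over the Pst libraries. AT4G25800, a calmodulin-binding protein gene, had 2.02 and 1.398 CPM in camta3-D against 0.415 and 0.580 CPM in wild type after flg22, and 4.29 to 5.31 CPM in camta3-D against 4.25 to 8.81 CPM in wild type over the Pst libraries. The differences were 0.84 ± 0.12 for GTL1 (edgeR adjusted p = 0.0371) and 2.19 ± 0.33 for AT4G25800 (edgeR adjusted p = 0.0403). Among them were the 4 called genes of 527 tested with tetratricopeptide or pentatricopeptide repeats in the product name (0.759%, against 0.308% of all genes). AT3G14330 had 2.39 and 2.43 CPM in camta3-D against 0.829 and 1.06 CPM in wild type after flg22, and 12.02 to 13.3 CPM in camta3-D against 11.5 to 12.6 CPM in wild type over the Pst libraries. The differences of the repeat genes were 1.29 for AT3G14330, 1.17 for AT2G18940, 0.93 for EMB2279 and 0.77 for AT5G13770. Of 636 genes tested with a protein kinase in the product name 9 were called (1.42%, 4 higher and 5 lower), and of 79 of the TIR class 4 were called (5.06%, 1 higher and 3 lower). These groups by product name were formed after the values were seen and were not tested. AT4G10690 (1.32), TRM8 (0.88) and SNX2b, a sorting nexin gene (0.82), made up the rest.

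In 11 genes the genotype effect was called in opposite directions. For 7 of them camta3-D was higher after flg22 and lower after Pst, with differences of 0.73 to 1.79. ABCA1, a transporter gene, had 33.0 and 35.0 CPM in camta3-D against 24.7 and 23.8 CPM in wild type after flg22. It had 45.0 and 48.0 CPM in camta3-D against 61.3 and 78.2 CPM in wild type after AvrRpm1, and 33.9 and 32.4 CPM in camta3-D against 60.6 and 52.1 CPM in wild type after AvrRps4. The groups did not overlap within any treatment, and the order of the genotypes turned round. The difference was 1.16 ± 0.16 (edgeR adjusted p = 0.0357). AT1G75000, a GNS1/SUR4 membrane protein gene, had 13.3 and 13.5 CPM in camta3-D against 7.004 and 7.20 CPM in wild type after flg22, and 0.988 to 2.27 CPM in camta3-D against 1.96 to 2.98 CPM in wild type over the Pst libraries, with a difference of 1.79. The others were AT4G11900 (S-locus lectin kinase, 1.16), AT5G61520 (major facilitator family, 1.14), RTFL8 (1.12), UMAMIT38 (transporter, 0.90) and AT3G14920 (0.73). For UMAMIT38 the Pst effect was -0.78 after AvrRpm1 and 0.20 after AvrRps4.

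For 4 genes the order was the reverse, lower in camta3-D after flg22 and higher after Pst. AT4G17240, annotated as a structural maintenance of chromosomes protein, had 11.0 and 11.4 CPM in camta3-D against 25.9 and 23.3 CPM in wild type after flg22. It had 6.11 and 6.72 CPM in camta3-D against 5.41 and 6.23 CPM in wild type after AvrRpm1, and 12.2 and 12.7 CPM in camta3-D against 6.53 and 8.51 CPM in wild type after AvrRps4. The reversal came from AvrRps4, since the genotypes overlapped after AvrRpm1. The difference was -1.57 ± 0.18 (edgeR adjusted p = 0.0267). AT1G21060, a gene of the DUF547 family, had 9.14 and 10.1 CPM in camta3-D against 16.1 and 14.3 CPM in wild type after flg22, and 51.3 to 57.2 CPM in camta3-D against 30.2 to 37.1 CPM in wild type over the Pst libraries. Its reversal held in both strains, and the difference was -1.32 ± 0.16 (edgeR adjusted p = 0.0267). NPSN11, a SNARE protein gene (-1.04), and FZR2, an activator of the anaphase-promoting complex (-0.88), showed the pattern at smaller size.

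All 59 genes had the same sign against AvrRpm1 alone and against AvrRps4 alone, which is partly set by the shared flg22 libraries. All 59 also had an unadjusted p under 0.05 against each strain alone. After adjustment, 49 of them were called against AvrRpm1 alone and 9 against AvrRps4 alone. Over all genes, the difference was called for 74 higher (0.386%) and 34 lower genes (0.177%) against AvrRpm1 alone, and for 2 higher (0.0104%) and 7 lower (0.0365%) against AvrRps4 alone. At an unadjusted p under 0.05 there were 3000 genes (15.7%) against AvrRpm1 and 3160 (16.5%) against AvrRps4. Whether the strains differed from each other was not tested.

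The count of 59 changed whichever library was left out, rising without AvrRpm1 camta3-D replicate 1 and falling without any other. Without flg22 camta3-D replicate 1, flg22 camta3-D replicate 2 or flg22 wild type replicate 2, edgeR called 0 genes, while 2924, 2563 and 2478 genes still had an unadjusted p under 0.05. It called 5 genes without flg22 wild type replicate 1, 106 and 33 without AvrRpm1 camta3-D replicate 1 and 2, and 20 and 29 without AvrRpm1 wild type replicate 1 and 2. It called 6 and 5 genes without AvrRps4 camta3-D replicate 1 and 2, and 6 and 37 without AvrRps4 wild type replicate 1 and 2. Leaving out a library leaves its group with 1 sample, which is then assumed to vary like the others. DESeq2 called 634 genes, 354 higher (1.85%) and 280 lower (1.46%), among them all 59. In each of the 19 alternative settings that changed the fit or the contrast, the 59 genes kept their sign. The genes were selected on these same libraries, so the kept sign is not independent support. None of the 59 was called with every library left out in turn. AT1G11330 and CAF2 were called in 9 of these 12 settings, AT5G51630 in 8, AT1G56520 and AT5G57150 in 7, and 7 of the 59 genes in none.

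**Figure D3:**
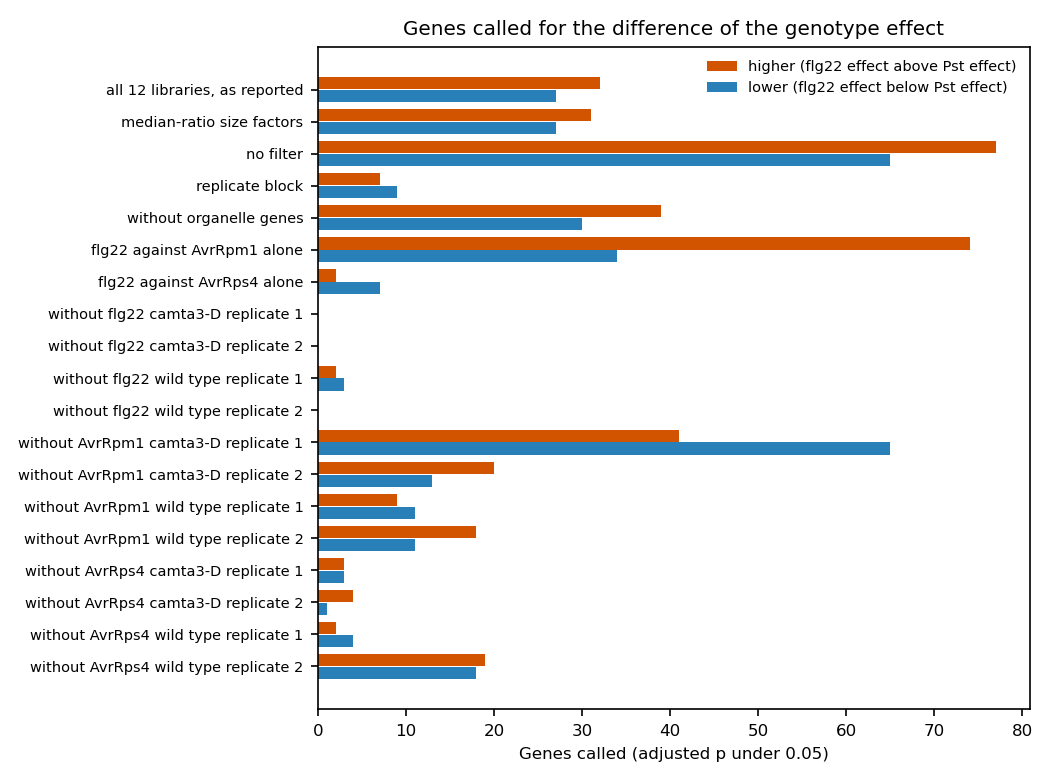
Number of genes called higher and lower for the difference of the genotype effect (horizontal axis) as reported and under the alternatives (rows), without DESeq2, which called 354 and 280. Bars start at 0, and leaving out a flg22 library leaves at most 5 calls.

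Immediate-early genes respond at once to a stimulus, without a need for newly made protein. The study drew up its list from other experiments. It holds genes induced soon after expression of a domain of the barley immune receptor MLA and also induced by cycloheximide, an inhibitor of protein synthesis. Of the listed genes 415 were tested here and 2 were not. Of the 415, 5 were called and all 5 were lower (AT1G56520, AT4G17240, AT1G69430, BCS1 and PIRL5), with 0 called higher. Of all genes 0.141% were called lower and 0.167% higher. At an unadjusted p under 0.05, 109 were lower and 10 higher, that is 26.3% and 2.41%, against 6.5% and 9.69% of all genes. DESeq2 called 43 lower and 2 higher, where of all genes it called 1.46% lower and 1.85% higher. The difference was below 0 for 310 of the 415 (74.7%, against 46.2% of all genes). It was below -1 for 61 (14.7%, against 3.69% of all genes) and above 1 for 6 (1.45%, against 4.14%). The list's median was -0.33, against 0.03 over all genes, and lay between -0.42 (without AvrRpm1 camta3-D replicate 1) and -0.21 (without replicate 2) with each library left out. Library-by-library differences lay wholly below for 74 of the genes (17.8%, against 5.63% of all) and wholly above for 3 (0.723%, against 7.88%). In the 250 bases upstream, CGCG was present in 19% of the 415, against 11.1% of 19043 promoters of tested genes. The shares were 50.8% against 46.3% for CGTG or CACG and 53% against 44.9% for TTGAC or GTCAA. A link between these words and the difference was not tested.

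Within the treatments, 95 immediate-early genes were lower in camta3-D after flg22 (22.9%, against 5.59% of all genes) and 7 higher (1.69%, against 5.21%). After Pst 32 were lower and 32 higher (7.71% each, against 5.81% and 4.13% of all genes). MKK4, a kinase gene of the cascade below FLS2, had 49.5 and 44.5 CPM in camta3-D against 172 and 229.6 CPM in wild type after flg22. It had 9.34 and 11.4 CPM in camta3-D against 27.5 and 16.4 CPM in wild type after AvrRpm1, and 26.0 and 37.8 CPM in camta3-D against 32.0 and 44.1 CPM in wild type after AvrRps4. Wild type stood higher throughout in its means, and most of all after flg22. The difference of -1.43 ± 0.33 did not pass the test (edgeR adjusted p = 0.0892).

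**Figure D4:**
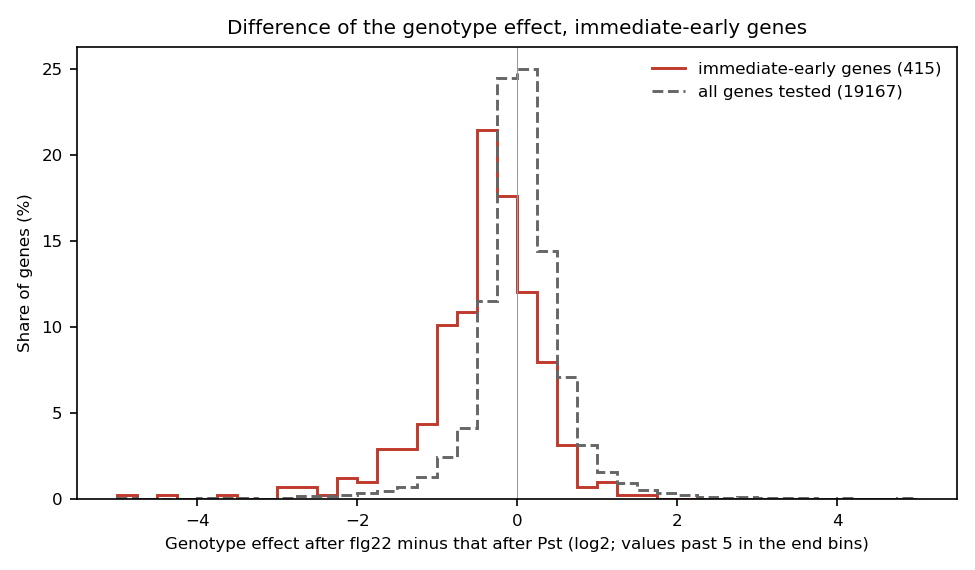
Share of genes (vertical axis, percent) by the genotype effect after flg22 minus that after Pst (horizontal axis, log2), for 415 immediate-early genes (solid) and all 19167 genes tested (dashed). The immediate-early genes sit to the left, with a median of -0.33 against 0.03.

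Of the 8 genes that the study also followed by RT-qPCR, BON3 and AT5G41730 had 3 counts or fewer per library in at least 1 Pst group, so no difference is given for them. The other 6 differences, taken over both strains, were all below 0, with a median of -1.94. How these genes were picked may rest on these samples, so their shared direction is not independent evidence. By edgeR 0 of 8 was called, and 4 were lower at an unadjusted p under 0.05 (50%, against 6.5% of all genes). DESeq2 called 2 lower (against 1.46% of all genes). DLAH (AT1G30370), a lipase-like gene, had 12.8 and 9.01 CPM in camta3-D against 61.6 and 105 CPM in wild type after flg22, 0.390 and 1.11 CPM in camta3-D against 1.58 and 1.41 CPM in wild type after AvrRpm1, and 8.13 and 12.6 CPM in camta3-D against 5.96 and 10.1 CPM in wild type after AvrRps4. The genotypes were apart after flg22 and overlapped after AvrRps4. The difference was -2.61 ± 0.51 (edgeR adjusted p = 0.0646).

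CBP60G and SARD1 encode related factors that switch on salicylic acid synthesis, and both were lower in camta3-D after flg22. CBP60G had 63.0 and 58.7 CPM in camta3-D against 292 and 355 CPM in wild type after flg22. It had 5.79 and 23.4 CPM in camta3-D against 31.8 and 16.8 CPM in wild type after AvrRpm1, and 64.7 and 109 CPM in camta3-D against 64.7 and 108 CPM in wild type after AvrRps4. The genotypes overlapped after both strains, and the difference was -2.04 ± 0.66 (edgeR adjusted p = 0.173). SARD1 had 6.64 and 4.82 CPM in camta3-D against 37.6 and 55.8 CPM in wild type after flg22. It had 4.69 and 5.02 CPM in camta3-D against 81.6 and 39.9 CPM in wild type after AvrRpm1, and 32.1 and 57.6 CPM in camta3-D against 56.6 and 120.1 CPM in wild type after AvrRps4. Camta3-D was lower after flg22 (-3.02) and after Pst (-2.31), and the difference was -0.71 ± 0.57 (edgeR adjusted p = 0.590). The Pst effect was -3.64 after AvrRpm1 and -0.98 after AvrRps4. The direction of the difference for SARD1 thus depended on the strain, with 0.62 against AvrRpm1 alone and -2.05 against AvrRps4 alone.

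TAT3, an aminotransferase gene, was likewise lower in camta3-D after flg22 (-3.72) and after Pst (-2.89), with a difference of -0.83 ± 0.54 (edgeR adjusted p = 0.489). AT4G39670, a lipid transfer protein gene, had an effect of -2.16 after flg22 and -0.33 after Pst (difference -1.84 ± 0.46, edgeR adjusted p = 0.105). For CML37, a calmodulin-like gene, the values were -2.24 and 0.47 (difference -2.71 ± 0.87, edgeR adjusted p = 0.175). AT5G41730 had 0.744 and 0.311 CPM in camta3-D against 5.62 and 6.43 CPM in wild type after flg22. BON3 had 3.77 and 2.12 CPM in camta3-D against 6.08 and 5.46 CPM in wild type after flg22.

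Of the 6 CAMTA genes 0 was called by edgeR or DESeq2. At an unadjusted p under 0.05 there was 1 (16.7%, against 16.2% of all genes). CAMTA3 itself (AT2G22300) had 209.9 and 193 CPM in camta3-D against 195 and 191 CPM in wild type after flg22, 49.9 and 50.6 CPM in camta3-D against 68.2 and 59.3 CPM in wild type after AvrRpm1, and 95.0 and 124 CPM in camta3-D against 87.0 and 122 CPM in wild type after AvrRps4. No genotype effect on the transcript was called after either treatment, and a transcript level does not test for this allele. The difference was 0.20 ± 0.21 (edgeR adjusted p = 0.696). CAMTA4 (AT1G67310) had 111 and 114 CPM in camta3-D against 84.2 and 70.8 CPM in wild type after flg22, and 50.5 to 62.1 CPM in camta3-D against 48.8 to 59.9 CPM in wild type over the Pst libraries (difference 0.54 ± 0.15, edgeR adjusted p = 0.121). Its genotype effect after flg22 was called (0.54, edgeR adjusted p = 0.0242), and that after Pst was not (-0.01).

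Over the 32 lists, 9 of the 59 called genes were members of a list. The share of all tested genes that belonged to a list was not counted. The transcription factor genes of the rapid stress response had a median difference of -0.87, with 6 of 22 lower (27.3%, against 6.5% of all genes) and 0 higher (against 9.69%) at an unadjusted p under 0.05. By edgeR 0 was called, and DESeq2 called 4, all lower (against 1.46% of all genes). ERF5, an ethylene response factor gene, had 17.2 and 14.0 CPM in camta3-D against 41.2 and 55.8 CPM in wild type after flg22, 3.16 and 7.27 CPM in camta3-D against 4.02 and 4.07 CPM in wild type after AvrRpm1, and 18.1 and 17.64 CPM in camta3-D against 12.6 and 18.9 CPM in wild type after AvrRps4. The genotypes overlapped after both strains, and the difference was -1.91 ± 0.39 (edgeR adjusted p = 0.0721). ZAT11, a zinc finger factor gene, had a difference of -2.06 ± 0.57 (edgeR adjusted p = 0.131).

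Protein folding genes of the endoplasmic reticulum had a median difference of -0.54, with 6 of 17 lower (35.3%, against 6.5% of all genes) and 0 higher (against 9.69%) at an unadjusted p under 0.05. Of the 17, 12 were lower in camta3-D after flg22 and 4 after Pst, against 5.59% and 5.81% of all genes. BIP2, an Hsp70 chaperone gene, had 57.4 and 49.9 CPM in camta3-D against 129 and 241 CPM in wild type after flg22, 159 and 255 CPM in camta3-D against 252 and 156 CPM in wild type after AvrRpm1, and 58.6 and 55.4 CPM in camta3-D against 159 and 139 CPM in wild type after AvrRps4. Its effect after AvrRps4 resembled that after flg22, and the genotypes overlapped after AvrRpm1. For the list the median was -0.80 against AvrRpm1 and -0.14 against AvrRps4. By edgeR 0 was called, and DESeq2 called 2 lower (against 1.46% of all genes). The median lay between -0.85 and -0.18 with each library left out. These extremes came without flg22 wild type replicate 1 (-0.85) and replicate 2 (-0.18).

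The salicylic acid genes were split. Of 31, 8 were higher (25.8%, against 9.69% of all genes) and 3 lower (9.68%, against 6.5%) at an unadjusted p under 0.05, and 1 (GRXS13) was called, against 0.308% of all genes. The median difference was 0.35 (-0.02 without AvrRps4 wild type replicate 2), but -0.28 without the 8 members that had a group at 3 counts or fewer, and 0.71 against AvrRpm1 but -0.25 against AvrRps4. NIMIN-2 had 18.4 and 16.7 CPM in camta3-D against 21.6 and 33.1 CPM in wild type after flg22, 0.284 and 0.593 CPM in camta3-D against 17.3 and 8.53 CPM in wild type after AvrRpm1, and 0.649 and 0.647 CPM in camta3-D against 1.39 and 3.504 CPM in wild type after AvrRps4. It encodes a protein that binds the salicylic acid receptor NPR1, and its genotype gap was wide after AvrRpm1 (difference 2.76 ± 0.57, edgeR adjusted p = 0.0730). PBS3, an enzyme gene of salicylic acid synthesis, went the other way, with 0.851 and 0.932 CPM in camta3-D against 13.5 and 24.6 CPM in wild type after flg22 (difference -2.79 ± 0.86, edgeR adjusted p = 0.157). In all, 15 of the 31 genes were lower in camta3-D after flg22 and 20 after Pst, against 5.59% and 5.81% of all genes, and 0 higher after either.

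Jasmonate genes had a median difference of 0.36, with 7 of 36 higher (19.4%, against 9.69% of all genes) and 0 lower (against 6.5%) at an unadjusted p under 0.05. As higher, edgeR called 1 (LOX6, against 0.167% of all genes) and DESeq2 called 3 (against 1.85%). The median was 0.07 against AvrRpm1 and 0.64 against AvrRps4, and 0.13 without flg22 wild type replicate 1. JAR1, which joins jasmonate to isoleucine to make the active hormone, had 129 and 177 CPM in camta3-D against 79.8 and 112 CPM in wild type after flg22, 40.5 and 47.3 CPM in camta3-D against 67.0 and 66.0 CPM in wild type after AvrRpm1, and 38.5 and 43.9 CPM in camta3-D against 63.5 and 55.0 CPM in wild type after AvrRps4. Its genotype order turned round between treatments, and the difference was 1.24 ± 0.23 (edgeR adjusted p = 0.0616). AOC1, an enzyme gene earlier in the pathway, had 702 and 589 CPM in camta3-D against 659 and 647 CPM in wild type after flg22, and 11.9 and 13.8 CPM in camta3-D against 66.7 and 39.4 CPM in wild type after AvrRps4. Its difference, which also takes in the AvrRpm1 libraries not listed here, was 1.31 ± 0.31 (edgeR adjusted p = 0.0930). After flg22 2 of the 36 genes were lower in camta3-D and 1 higher (against 5.59% and 5.21% of all genes), and after Pst 9 were lower and 0 higher (against 5.81% and 4.13%).

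Of 50 calcium signalling genes, 34 had a difference below 0, and the median was -0.21. At an unadjusted p under 0.05, 5 were higher (10%, against 9.69% of all genes) and 7 lower (14%, against 6.5%). EdgeR called 0, and DESeq2 called 2 higher (against 1.85% of all genes) and 4 lower (against 1.46%). The cyclic nucleotide-gated channel genes CNGC11 and CNGC12, named after their values were seen, were among the higher ones. CNGC11 had 11.0 and 5.59 CPM in camta3-D against 4.70 and 8.95 CPM in wild type after flg22, 2.88 and 3.64 CPM in camta3-D against 72.7 and 36.3 CPM in wild type after AvrRpm1, and 4.93 and 7.08 CPM in camta3-D against 16.5 and 27.2 CPM in wild type after AvrRps4. The genotypes overlapped after flg22 alone, and the difference was 3.25 ± 0.57 (edgeR adjusted p = 0.0563). Its neighbour CNGC12, a gene of high similarity whose reads may be shared, had a difference of 2.02 ± 0.40 (edgeR adjusted p = 0.0680).

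Sugar starvation genes had a median difference of 0.57, with 5 of 15 higher (33.3%, against 9.69% of all genes) and 0 lower (against 6.5%) at an unadjusted p under 0.05 and 0 called by edgeR or DESeq2. The median was 0.74 against AvrRpm1 and 0.17 against AvrRps4, and 0.12 without flg22 camta3-D replicate 2. TPS10, of the trehalose phosphate synthase family, had 166 and 284 CPM in camta3-D against 121 and 84.3 CPM in wild type after flg22, with replicate 2 of camta3-D well above replicate 1. Phloem markers had a median of 0.45 (3 of 8 higher, 37.5% against 9.69% of all genes, unadjusted) and guard cell markers of -0.41 (4 of 9 lower, 44.4% against 6.5%, unadjusted), with 0 called in either list by edgeR or DESeq2. The guard cell factor gene FMA had 6.64 and 8.34 CPM in camta3-D against 13.3 and 15.5 CPM in wild type after flg22, and 9.62 to 15.2 CPM in camta3-D against 11.7 to 17.62 CPM in wild type over the Pst libraries. The part of these cell types in the called genes was not tested.

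**Figure D5:**
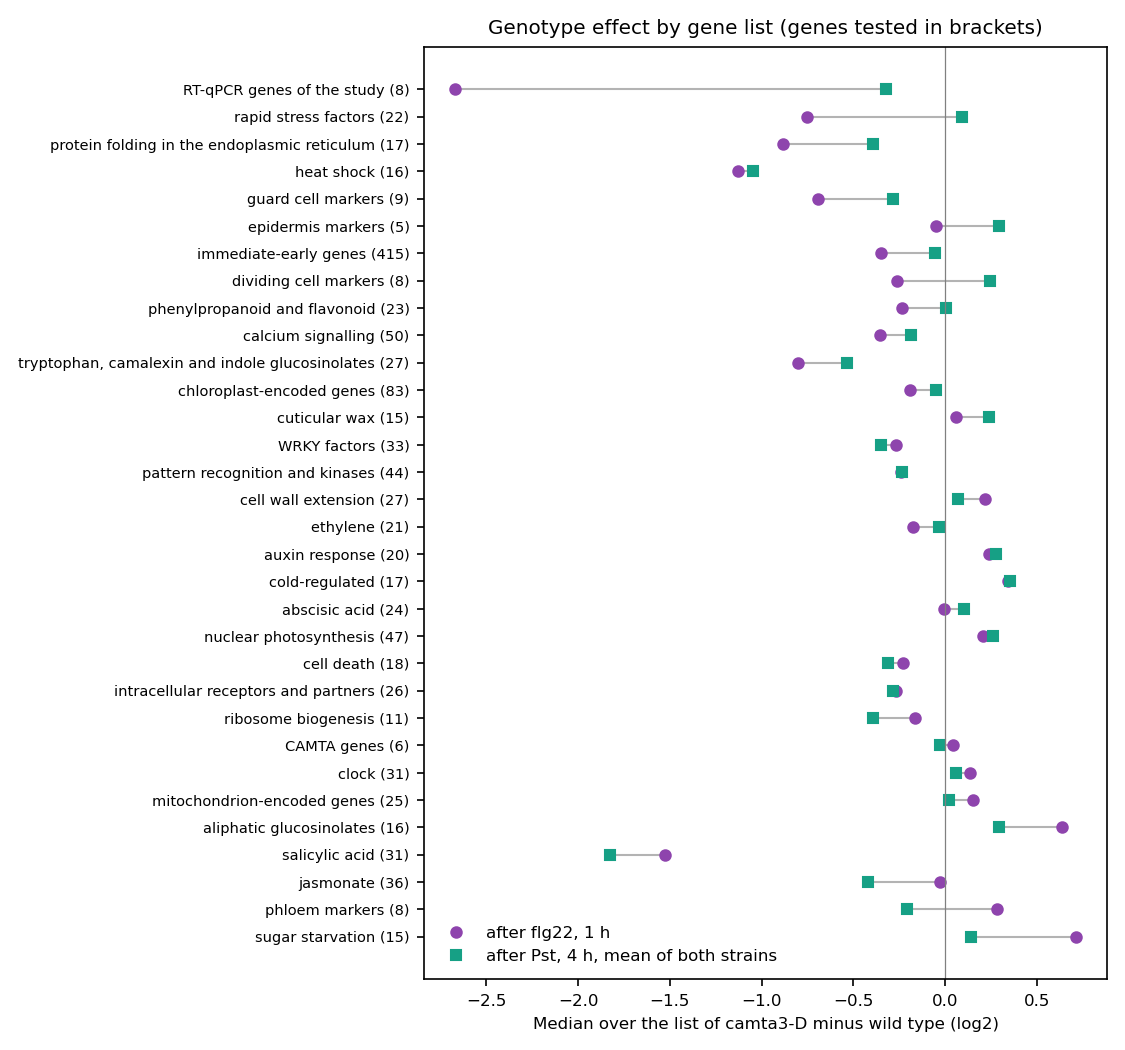
Median genotype effect of each gene list (camta3-D minus wild type, log2) after flg22 (circles) and after Pst, mean of both strains (squares). Lists are ordered by their median difference, from the RT-qPCR genes (-1.94) to the sugar starvation genes (0.57), and the comparisons share no library between circle and square.

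Heat shock genes had a median difference of -0.44, with 3 of 16 lower (18.8%) and 0 higher at an unadjusted p under 0.05, where all genes had 6.5% lower and 9.69% higher. The genes of tryptophan, camalexin and indole glucosinolates had 7 of 27 lower (25.9%) and 0 higher, with a median of -0.16 that was -0.59 against AvrRpm1 and 0.29 against AvrRps4. Clock genes had a median of 0.16 with 6 of 31 higher (19.4%) and 2 lower. The medians were -0.35 for 5 epidermis markers and -0.25 for 8 dividing cell markers, with 1 lower in each. They were -0.09 for pattern recognition genes and kinases (4 of 44 higher and 6 lower), 0.04 for intracellular receptors and partners (3 of 26 higher, 3 lower), -0.10 for WRKY factors (4 of 33 higher, 3 lower) and -0.03 for nuclear photosynthesis genes (1 of 47 higher, 0 lower). Chloroplast-encoded genes had a median of -0.15 with 0 of 83 past an unadjusted p of 0.05. In these 10 lists edgeR called 0 genes, and DESeq2 called at most 3 in any of them. Of all genes DESeq2 called 1.85% higher and 1.46% lower.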

How the data were processed

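Leaf polyadenylated RNA was sequenced (TruSeq RNA kit, v2). According to the submitters' processing notes and the study's methods, the authors checked reads with FastQC (0.11.2), aligned them to TAIR10 with TopHat2 (2.0.10) and counted reads per gene with HTSeq. The strand setting of the counting and the HTSeq version are not given in the sources used here. The deposited values are raw read counts per gene, which were used as deposited. Of 32678 genes, filterByExpr (minimum count 10) kept 19167. The 5 summary lines that name no gene served only to describe the libraries.

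Counts were TMM-scaled and fitted with the edgeR (4.0.16) quasi-likelihood model in R (4.3.3), with a mean for each of 6 groups, 2 libraries each and 6 residual degrees of freedom. The contrast was flg22 camta3-D minus flg22 wild type, less the mean of the same difference for AvrRpm1 and AvrRps4. A call needed a p under 0.05 after Benjamini-Hochberg adjustment across the genes tested. All groups and genes shared in the estimate of the spread (common biological coefficient of variation 0.15).

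Named genes were up to 10 with the largest difference in each direction among called genes with a mean log2 CPM of at least 2 and no overlap, the 10 with the smallest p, up to 2 called members per list, the CAMTA genes and those of the RT-qPCR assays. Other genes were named after their values were seen. Members and lists were chosen with earlier results of these data known. Symbols came from RefSeq (31912 of 32678 loci matched). Alternatives were median-ratio size factors, no filter, the replicate block, DESeq2 (1.42.0), no organelle genes, each strain alone, stricter thresholds and each library left out. The fitting was tested on simulated data.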

Additional observations from a re-analysis of the deposited data

Results flagged for a closer look

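Named genes whose genotype effect differed between flg22 and Pst by the edgeR quasi-likelihood test (adjusted p under 0.05) are listed here with that difference on the log2 scale, flg22 minus Pst. Higher values were 4.48 for LURP1, 4.16 for AT5G03350, 3.11 for XTH25, 2.76 for GRXS13, 2.57 for AT3G04210, 1.97 for CAF2, 1.97 for PERK15, 1.85 for AT4G24970, 1.83 for AT1G11330, 1.58 for AT3G03440, 1.53 for TCP9 and 0.89 for LOX6. Lower values were -2.81 for AT1G56520, -2.81 for BRU6, -2.65 for BCS1, -2.49 for AT5G51630, -1.73 for AT1G12460, -1.72 for AT5G57150, -1.66 for AT2G41410, -1.57 for AT4G17240, -1.57 for KT1, -1.39 for CRK40, -1.32 for AT1G21060 and -1.21 for LecRK-I.9.

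In the summary lines, which entered no test, AvrRpm1 camta3-D replicate 2 had 7.78% of alignments set aside as not unique, above the 2.56 to 3.43% of the other libraries.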

How the results depend on the processing

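The counts for the difference of the genotype effect (32 higher, 27 lower) were 31 and 27 with median-ratio size factors and 39 and 30 without organelle genes. Without the filter on low counts they were 77 and 65, all 83 added calls being genes that the filtered table also tested. With DESeq2 they were 354 and 280, against AvrRpm1 alone 74 and 34, and against AvrRps4 alone 2 and 7. At an adjusted p under 0.01 and an absolute log2 value over 1 they were 0 and 0 by edgeR (3103 genes at an unadjusted p under 0.05). With a library left out they ranged over 0 to 41 and 0 to 65. Same-numbered samples did not deviate together (15 pairs, correlations of -0.18 to 0.098), and with the replicate block the counts were 7 and 9, with 15 genes shared.

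At the stricter thresholds the genotype effect after flg22 had 40 higher and 176 lower genes (999 and 1072 as reported), that after Pst 61 and 211 (792 and 1113), flg22 against Pst in camta3-D 3308 and 3148 (6229 and 6498), and in wild type 3573 and 3783 (6570 and 7063). With a library left out, the counts ranged over 53 to 892 and 165 to 1096 after flg22, 244 to 736 and 482 to 1076 after Pst, 5535 to 6262 and 5421 to 6492 in camta3-D, and 6075 to 6890 and 5944 to 7009 in wild type. The cause of these moves was not tested. All 59 called genes kept their sign in the 19 settings that changed the fit or the contrast, which share libraries with the fit that selected them. With 2 libraries a group, a gene that was not called is not shown to have equal effects.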

Other observations

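Some genes lay just outside the threshold, each with an edgeR adjusted p of 0.050006. They were LAC13, a laccase gene (2.07), AT5G40910 (1.48), AT1G74440 (1.31), ADT6, an arogenate dehydratase gene of phenylalanine synthesis (-1.29), and the immediate-early gene AT2G39650 (-1.90), with the difference of the genotype effect on the log2 scale in brackets. They were chosen after their values were seen.

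Called genes were found on chromosomes 1 to 5. Tested genes were not counted by chromosome, so the numbers that follow show neither an even spread nor clustering. The higher genes numbered 8 on chromosome 1, 5 on chromosome 2, 5 on chromosome 3, 6 on chromosome 4 and 8 on chromosome 5, and the lower genes 6, 4, 6, 6 and 5 in the same order.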
